A study of Homo sapiens with 40 samples.

Results

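A pair of class I phosphoinositide 3-kinase (PI3K) inhibitors, BKM120 and GDC0941, were compared at the highest level of each in A2058 cells, an established human melanoma line. The members are the arrays whose titles name BKM120 or GDC0941 treatment at the maximum concentration, 4 each, so 8 of the 40 arrays of the study. Cells received 1 treatment that lasted 24 h with BKM120 at its maximum, with GDC0941 at its maximum, or with DMSO, the solvent control (4 arrays each, labelled as biological replicates). The study also holds lower levels of both compounds and another inhibitor, BEZ235, each with 4 arrays per level, and these entered the same model. The labels do not put the 2 highest levels on the same footing. That of BKM120 is labelled IC90 (max), whereas GDC0941 has an IC90 level and a separate level called max. The labels state no molar concentrations, so compound and level cannot be told apart in this comparison. Several labels spell the compound GCD0941, and it is written GDC0941 here.

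Class I PI3Ks phosphorylate a membrane lipid downstream of growth factor receptors, and the product recruits the kinase AKT, which restrains FOXO transcription factors and activates the growth kinase complex mTORC1. Inhibition typically releases FOXO targets and receptor genes from repression and slows entry into the cell cycle. BKM120 (buparlisib) is a pyrimidine with a pair of morpholine rings and a trifluoromethyl aminopyridine, whereas GDC0941 (pictilisib) is a thienopyrimidine with 1 morpholine, an indazole and a sulfonylpiperazine. BKM120 is also known to bind tubulin, the protein of microtubules, at concentrations above those that inhibit PI3K.

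Each level below is log2(array intensity + 16), so 1 unit is a factor of 2, and each difference is BKM120 max minus GDC0941 max on that scale with its standard error (SE) from limma. Genes with a Benjamini-Hochberg adjusted p under 0.05 in limma's moderated test are called higher or lower. The scale understates the change of dim genes. Melanoma markers were present in both groups: the summed intensity of 8 markers (MITF, SOX10, PMEL, MLANA, TYR, TYRP1, S100B and S100A1) was 9930 to 10200 on the BKM120 arrays, 10900 to 12100 on the GDC0941 arrays and 7950 to 8450 on the DMSO arrays. Of 17 markers of other cell types, 7 passed the filter on dim genes, with sums of 2320 to 2430, 2160 to 2510 and 2410 to 2730 on the BKM120, GDC0941 and DMSO arrays, and several were bright. Mean intensities on the BKM120 and GDC0941 arrays were 1180 and 1140 for LUM, a matrix protein of fibroblasts, 881 and 896 for the keratin KRT10, 173 and 168 for LYZ, the lysozyme of myeloid cells, 54.9 and 43.2 for the keratin KRT14, and 13.6 and 11.2 for the endothelial PECAM1, with DCN and PDGFRA given further on. The other 10, among them PTPRC (3.06 and 2.9), CD3E (0.546 and 0.847), EPCAM (3.25 and 3.05) and KRT5 (1.14 and 0.799), were below the filter, so markers of one cell type stood on both sides of it, and the part of other cell types in the differences was not tested. Replicates of BKM120 max correlated at 0.9945 to 0.9962 and those of GDC0941 max at 0.9902 to 0.9958 over all genes tested. The ratio of 3-prime to 5-prime signal, a measure of RNA integrity, differed by -0.00748 for GAPDH (exact permutation p = 0.886, 2-sided, 70 arrangements) and by -0.105 for ACTB (exact permutation p = 0.114), on a log2 scale. Replicate 3 of BEZ235 IC50 stood apart with a ratio of 1.77 for GAPDH and 4.65 for ACTB. It enters these differences only through the estimate of spread and the choice of probe sets and genes tested. The median intensity was 15.1 to 15.7 on the BKM120 arrays and 13.2 to 14.4 on the GDC0941 arrays (exact permutation p = 0.0286, the smallest possible, 0.0858 adjusted over the 3 measures), and its part in the differences was not tested.

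Expression differed widely between the compounds. Of 11865 genes tested, 3973 (33.5%) were called, 1484 of them higher (12.5%) and 2489 lower (21%) with BKM120 max, and the median difference over all genes was -0.0445. Most differences were small, since 141 of the called genes differed by at least 2-fold. Among these the balance was the other way, with 110 higher and 31 lower in BKM120 max. The 4 values of each group did not overlap in 1608 genes on the higher and 2661 on the lower side, 36% of the genes tested. Among 2874 tested probe sets that carry no gene symbol 38.7% were called. The plot of gene differences by list shows where they lay: mitotic genes stood at the positive end and genes of sterol synthesis at the negative end.

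**Figure D1:**
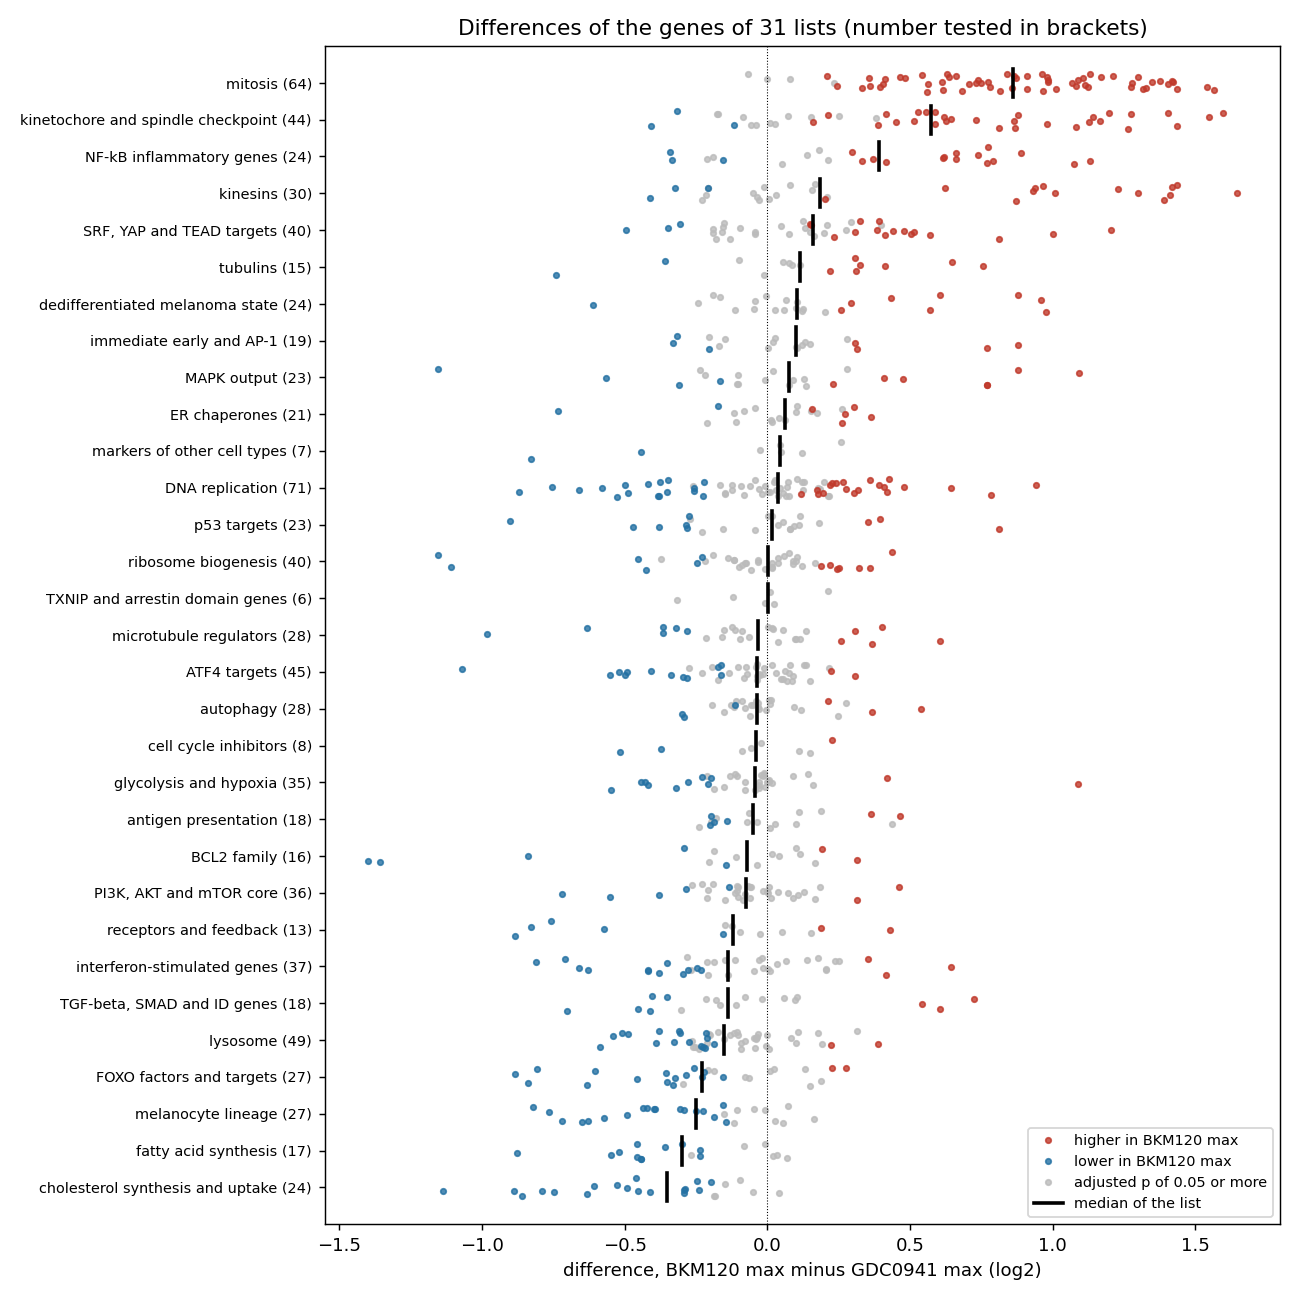
Difference between BKM120 max and GDC0941 max (x axis, log2) for the tested genes of 31 lists (rows, number tested in brackets, ordered by median). Red points are genes called higher in BKM120 max, blue points genes called lower, grey points genes not called, and black bars the list medians, which run between 0.86 for mitosis and -0.35 for cholesterol synthesis and uptake.

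The widest single difference belonged to DHRS3, a short-chain dehydrogenase that reduces retinaldehyde to retinol. DHRS3 stood at 9.62, 9.73, 9.71 and 9.72 in BKM120 max, at 6.24, 6.58, 6.32 and 6.31 in GDC0941 max and at 9.67, 9.63, 9.64 and 9.75 in DMSO. The BKM120 arrays overlapped the DMSO arrays and all GDC0941 arrays lay far below both, a 10.1-fold difference (3.33 ± 0.13 SE, adjusted p = 1.73e-21). NT5DC4, annotated as a nucleotidase domain protein, was instead raised by BKM120, with 7.22, 7.21, 7.33 and 7.27 in BKM120 max against 4.86, 4.65, 4.72 and 4.83 in GDC0941 max and 4.98 to 5.24 in DMSO. It rose by 2.10 over DMSO in BKM120 max and fell by 0.39 in GDC0941 max, and the compounds differed by 5.63-fold (2.49 ± 0.11, adjusted p = 2.85e-20). Its other 2 probe sets were dim, at about 4 in both groups.

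Several further transcripts shared the pattern of NT5DC4, with a rise over DMSO under BKM120 max. They were EBLN2, a gene derived from an ancient viral insertion (2.45 above GDC0941 max and 2.07 above DMSO), SNORA21, a small nucleolar RNA (2.13 and 1.66), RAB11FIP3, a partner of the recycling GTPase RAB11 (2.07 and 1.66), EIF3C, a subunit of a translation initiation factor (1.98 and 1.62), and GTF2H2B, a copy of a transcription factor subunit gene (1.97 and 1.82). Each was called in both comparisons, and no BKM120 array overlapped a GDC0941 or DMSO array. The values of EIF3C and GTF2H2B are uncertain as to the gene, because near-identical copies exist. For SNORA21 the sources used here do not say whether its probe set measures the mature small nucleolar RNA. RAB11FIP3 has 2 more probe sets, below the one used in signal, and they differed by 0.12 and 0.45. SCG5, a chaperone of secretory granules, was 7.67, 7.80, 7.91 and 7.82 in BKM120 max, 6.38, 6.31, 6.26 and 6.16 in GDC0941 max and 6.48 to 6.82 in DMSO (1.52 ± 0.10, adjusted p = 5.75e-15).

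**Figure D2:**
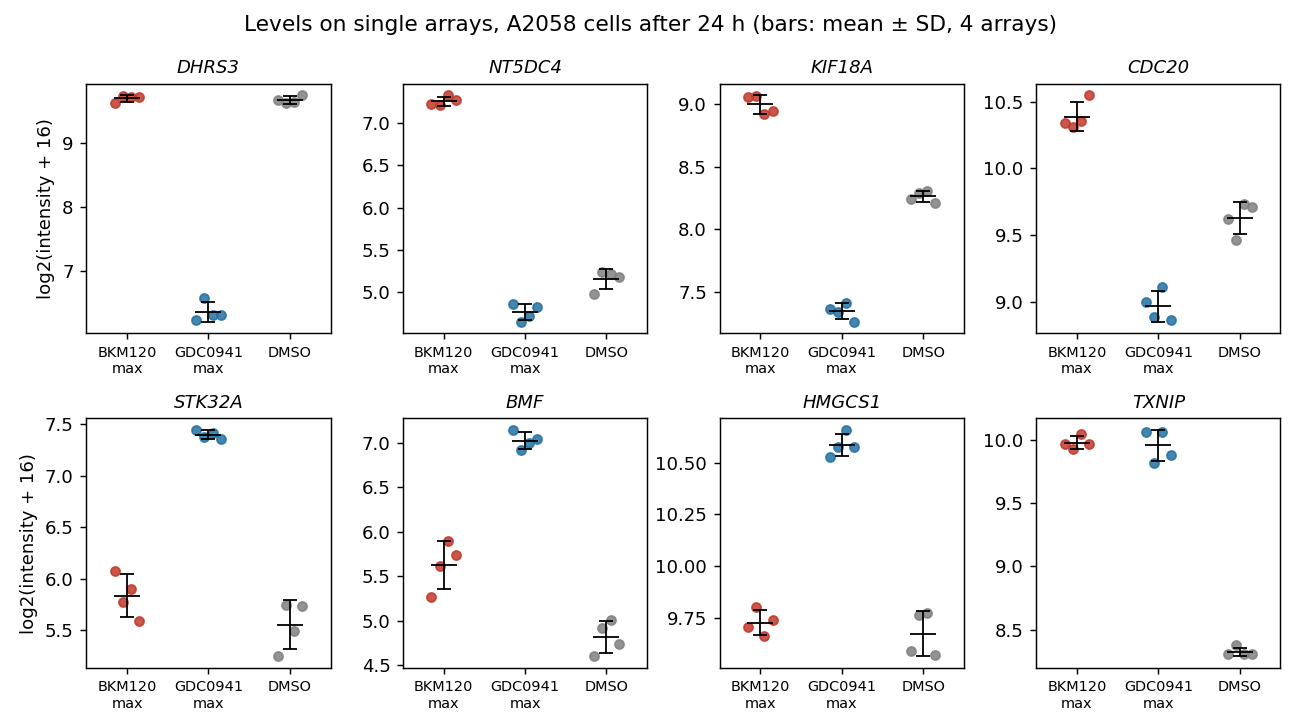
Levels of 8 genes (y axes, log2 of intensity + 16) on each of the 4 arrays of BKM120 max (red), GDC0941 max (blue) and DMSO (grey), with black bars for mean ± SD. DHRS3 is low in GDC0941 max, NT5DC4 is high in BKM120 max, KIF18A and CDC20 lie on opposite sides of DMSO, STK32A, BMF and HMGCS1 are high in GDC0941 max, and TXNIP overlaps between the compounds.

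Genes of mitosis were higher in BKM120 max almost throughout the list. The programme they form is switched on as cells prepare to divide, so in a bulk sample its level cannot tell more dividing cells from more RNA per cell. Of 64 mitotic genes tested, 60 were called higher and 0 lower in BKM120 max, with a median difference of 0.86 against -0.0445 over all genes. Over all genes, BKM120 max changed 34.5% relative to DMSO (17.3% in each direction) and GDC0941 max 43.9% (25.5% up, 18.4% down), and the 4 arrays of the compound did not overlap those of DMSO in 39.1% and 42.2% of genes. Of the mitotic genes 48 rose and 5 fell in BKM120 max (median 0.42), and 0 rose and 55 fell in GDC0941 max (median -0.49). In 41 genes both changes were called and had opposite signs. Both comparisons use the same 4 DMSO arrays. All 18 genes of the spindle and midzone were called higher, and all 12 of chromosome condensation and the passenger complex. Among mitotic kinases and cyclin B genes 18 of 20 were called higher, among genes of anaphase promotion and cohesion 9 of 10, and among the transcription factors of the programme 3 of 4.

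CDC20, the activator of the anaphase-promoting complex, stood at 10.34, 10.31, 10.35 and 10.55 in BKM120 max, 9.00, 8.89, 9.11 and 8.86 in GDC0941 max and 9.62, 9.46, 9.73 and 9.71 in DMSO. The 3 groups did not overlap, with BKM120 above and GDC0941 below the controls (1.42 ± 0.14, adjusted p = 1.39e-10). GTSE1, a microtubule-binding protein of late cell cycle stages, was 8.52, 8.44, 8.71 and 8.51 in BKM120 max, 7.00, 7.10, 6.96 and 6.87 in GDC0941 max and 7.54, 7.61, 7.54 and 7.71 in DMSO (1.57 ± 0.089, adjusted p = 8.25e-17). The same order of groups held for CDCA8, the borealin subunit of the chromosomal passenger complex, at 9.65, 9.56, 9.68 and 9.71 in BKM120 max, 8.23, 8.02, 8.13 and 8.06 in GDC0941 max and 8.84 to 9.02 in DMSO (1.54 ± 0.068, adjusted p = 5.8e-20). BUB1, a kinase of the spindle checkpoint, differed by 1.40 ± 0.075 (adjusted p = 1.66e-17) and CDCA2, which recruits a phosphatase to anaphase chromatin, by 1.43 ± 0.12 (adjusted p = 3e-12). PIF1, a DNA helicase, was 7.89, 7.79, 7.79 and 7.84 in BKM120 max, 6.28, 6.29, 6.31 and 5.93 in GDC0941 max and 6.17 to 6.65 in DMSO, so all BKM120 arrays lay above the control range, and 1 GDC0941 array lay below it. HMMR-AS1, an antisense transcript at the gene of the spindle protein HMMR, was 1.63 ± 0.19 higher (adjusted p = 5.93e-09), but the sources used here do not say whether its probe set keeps it apart from HMMR.

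Promoters of mitotic genes are known to carry a cell cycle genes homology region, the element through which the DREAM and MuvB complexes act, with the core TTTGAA. On either strand these letters were present in 30 of the 51 mitotic promoters in the RefSeq table (58.8%), counted from 250 bases before to 50 after the annotated start, in 9.91% of the promoters of tested genes and in 15.4% of all 27305 promoters of the same length. The 3 promoters below belong to genes described above and are shown to display that element (GRCh38.p14, 5′ to 3′ on the strand of the gene, match in capitals). The match lies at position -26 in GTSE1 and -23 in CDCA8, and CDC20 has 2, at -178 and -65.
GTSE1, chr22:46296620-46296919, plus strand: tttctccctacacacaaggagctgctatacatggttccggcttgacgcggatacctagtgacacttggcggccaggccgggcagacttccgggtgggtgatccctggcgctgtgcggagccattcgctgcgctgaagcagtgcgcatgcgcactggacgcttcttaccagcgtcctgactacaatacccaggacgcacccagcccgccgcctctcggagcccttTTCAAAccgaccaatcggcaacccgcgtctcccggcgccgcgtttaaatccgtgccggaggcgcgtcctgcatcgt
CDCA8, chr1:37692266-37692565, plus strand: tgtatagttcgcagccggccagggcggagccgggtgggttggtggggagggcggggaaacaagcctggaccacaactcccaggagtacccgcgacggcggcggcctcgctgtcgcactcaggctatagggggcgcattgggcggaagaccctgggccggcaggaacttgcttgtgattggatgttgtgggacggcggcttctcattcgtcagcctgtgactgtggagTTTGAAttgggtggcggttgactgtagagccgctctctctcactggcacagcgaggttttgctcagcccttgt
CDC20, chr1:43358731-43359030, plus strand: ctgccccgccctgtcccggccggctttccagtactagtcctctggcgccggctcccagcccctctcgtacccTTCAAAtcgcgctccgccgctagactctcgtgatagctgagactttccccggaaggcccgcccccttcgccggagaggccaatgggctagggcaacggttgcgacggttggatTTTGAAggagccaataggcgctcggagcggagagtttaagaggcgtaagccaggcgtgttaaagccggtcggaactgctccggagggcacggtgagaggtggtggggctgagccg
A match is a description of the letters and not of a bound site.

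The kinetochore, which ties chromosomes to spindle microtubules, and its checkpoint followed: 30 of 44 genes were called higher and 3 lower, with a median of 0.57. The outer kinetochore had 11 of 15 higher and 0 lower, centromere chromatin 11 of 17 higher and 1 lower, and the checkpoint 8 of 12 higher and 2 lower. HJURP, the chaperone that loads the centromeric histone, was 9.52, 9.50, 9.59 and 9.50 in BKM120 max, 8.06, 7.82, 7.90 and 7.94 in GDC0941 max and 8.74 to 8.91 in DMSO (1.60 ± 0.070, adjusted p = 5.8e-20). CENPA, that histone, was 8.27, 8.20, 8.22 and 8.30 in BKM120 max, 7.01, 6.57, 6.70 and 6.51 in GDC0941 max and 7.25 to 7.52 in DMSO (1.55 ± 0.093, adjusted p = 4.67e-16). The chaperone and its cargo thus both lay above DMSO in every BKM120 array and below it in every GDC0941 array. TTK, the checkpoint kinase also called MPS1, differed by 1.28 ± 0.12 (adjusted p = 3.65e-11), and NDC80, a microtubule-binding kinetochore protein, by 1.26 ± 0.088 (adjusted p = 2.52e-14).

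Kinesins, the motor proteins that move along microtubules, were called higher in 14 of 30 cases and lower in 3, with a median of 0.18. Among genes above the 60th percentile of signal, where 22 kinesins remained, the median was 0.75 and 13 were called higher. Those described here are the ones with the widest differences. KIF18A, which limits the length of kinetochore microtubules, was 9.05, 9.06, 8.91 and 8.94 in BKM120 max, 7.37, 7.34, 7.42 and 7.26 in GDC0941 max and 8.21 to 8.31 in DMSO. KIF18A rose by 0.73 over DMSO in BKM120 max and fell by 0.91 in GDC0941 max, and the difference was 1.65 ± 0.063 between them (adjusted p = 1.73e-21). CENPE, a kinetochore motor, differed by 1.43 ± 0.074, KIFC1, which bundles spindle poles, by 1.42 ± 0.13, KIF2C, a microtubule depolymerase, by 1.41 ± 0.11 and KIF20A, a motor of the central spindle, by 1.39 ± 0.13. In each of these 4 the groups of 4 arrays did not overlap.

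Tubulin genes themselves differed less. Of 15 tested, 7 were called higher and 2 lower, with a median of 0.11, and the differences ran between -0.74 and 0.76. TUBA1B was on the array but was not tested, since the probe set used for it was below the filter. Cross-hybridising designs were used only for genes without another, so the level of TUBA1B was not assessed. TUBB6, a beta-tubulin, was 9.98, 9.99, 10.04 and 10.03 in BKM120 max, 9.33, 9.19, 9.32 and 9.19 in GDC0941 max and 9.58 to 10.01 in DMSO, so all GDC0941 arrays lay below the controls, and the BKM120 arrays overlapped them (0.76 ± 0.11, adjusted p = 7.11e-07). TUBB4A, another beta-tubulin, was 5.49, 5.80, 5.62 and 5.63 in BKM120 max, 6.32, 6.39, 6.33 and 6.44 in GDC0941 max and 5.85 to 6.53 in DMSO (-0.74 ± 0.11, adjusted p = 1.01e-06). TUBD1 (0.65), TUBE1 (0.41), TUBG1 (0.32), TUBB2A (0.31), TUBB4B (0.31) and TUBB3 (0.22) were called higher. TUBA1A was called lower (-0.36, adjusted p = 0.0263), but not without replicate 2 of BKM120 max (-0.30, adjusted p = 0.0936) or replicate 3 of GDC0941 max (-0.34, adjusted p = 0.0614). The 95% interval of the difference was -0.02 to 0.17 for TUBB, 0.01 to 0.22 for TUBA1C, -0.28 to 0.09 for TUBA4A and -0.11 to 0.22 for TUBB2B, and none of these 4 was called. TUBA1C was called higher in 4 other settings, with probe sets averaged (adjusted p = 0.0336), with quantile normalization (adjusted p = 0.0375), without replicate 3 of BEZ235 IC50 (adjusted p = 0.0361) and with the ratio of 3-prime to 5-prime signal as a covariate (adjusted p = 0.0258), and its adjusted p ran up to 0.242 in the remaining ones. TUBA4A fell by 0.70 in BKM120 max and fell by 0.61 in GDC0941 max relative to DMSO, and TUBB2B fell by 0.90 and fell by 0.95. Of 28 microtubule regulators, 5 were called higher and 6 lower, near the background, with DCLK1, a microtubule-binding kinase, at -0.98, TPPP, which promotes polymerisation, at -0.63 and MAP1B, a microtubule-associated protein, at 0.60.

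DNA replication genes did not follow the mitotic ones as a block. Of 71 tested, 20 were called higher and 17 lower, with a median of 0.0375, although both compounds lowered many of them relative to DMSO (30 fell in BKM120 max and 33 in GDC0941 max). Cyclins of the G1/S transition and a replicative helicase subunit were lower in BKM120 max. CCNE1 was 8.95, 9.21, 9.06 and 9.08 in BKM120 max, 9.97, 9.86, 9.96 and 9.99 in GDC0941 max and 9.78 to 10.15 in DMSO, so it fell in BKM120 max, while the GDC0941 arrays overlapped the controls (-0.87 ± 0.070, adjusted p = 1.03e-12). MCM6, a subunit of the MCM helicase, behaved likewise, at 9.39, 9.53, 9.55 and 9.53 in BKM120 max, 10.28, 10.16, 10.34 and 10.24 in GDC0941 max and 10.10 to 10.24 in DMSO (-0.76 ± 0.068, adjusted p = 2.05e-11). CCNE2 differed by -0.66 ± 0.11 (adjusted p = 1.01e-05), and relative to DMSO it fell by 1.11 in BKM120 max and fell by 0.45 in GDC0941 max. On the other side DBF4, the regulatory subunit of the origin-firing kinase CDC7, was 0.94 ± 0.069 higher, GINS4, a subunit of the active helicase, 0.78 ± 0.13 and ORC6, a subunit of the origin recognition complex, 0.64 ± 0.069. The E2F letters TTTCCCGC, on either strand, were present in 13 of 62 promoters of this list (21%), in 2.76% of those of tested genes and in 1.66% of all. Of 8 cell cycle inhibitors 1 was called higher and 2 lower.

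Sterol synthesis genes were higher in GDC0941 max and close to control levels in BKM120 max. Of 24 genes of cholesterol synthesis and uptake, 0 were called higher and 18 lower in BKM120 max, with a median of -0.35. Relative to DMSO, 6 rose and 4 fell in BKM120 max (median -0.0059), and 18 rose and 0 fell in GDC0941 max (median 0.44). HMGCS1, which makes the precursor of mevalonate, was 9.70, 9.80, 9.66 and 9.74 in BKM120 max, 10.53, 10.58, 10.66 and 10.58 in GDC0941 max and 9.59, 9.76, 9.77 and 9.57 in DMSO. The BKM120 arrays overlapped the DMSO arrays and lay below all GDC0941 arrays (-0.86 ± 0.054, adjusted p = 1.5e-15). SQLE, squalene epoxidase, was 8.42, 8.48, 8.60 and 8.50 in BKM120 max, 9.42, 9.34, 9.41 and 9.40 in GDC0941 max and 8.55 to 8.69 in DMSO (-0.89 ± 0.061, adjusted p = 2.02e-14). TM7SF2, a sterol reductase, differed by -1.14 ± 0.11, LSS, lanosterol synthase, by -0.79 ± 0.13, DHCR7, the last reductase of the pathway, by -0.75 ± 0.098 and MSMO1, a sterol demethylase, by -0.63 ± 0.049. Among 17 genes of fatty acid synthesis 0 were called higher and 11 lower (median -0.30), with PNPLA3, a lipid hydrolase, at -0.88 ± 0.098 and FASN, fatty acid synthase, at -0.55 ± 0.12. The sterol regulatory element TCACNCCAC (any base at N), on either strand, was present in 1 of 22 promoters of the cholesterol list (4.55%), in 1.04% of those of tested genes and in 1.15% of all.

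**Figure D3:**
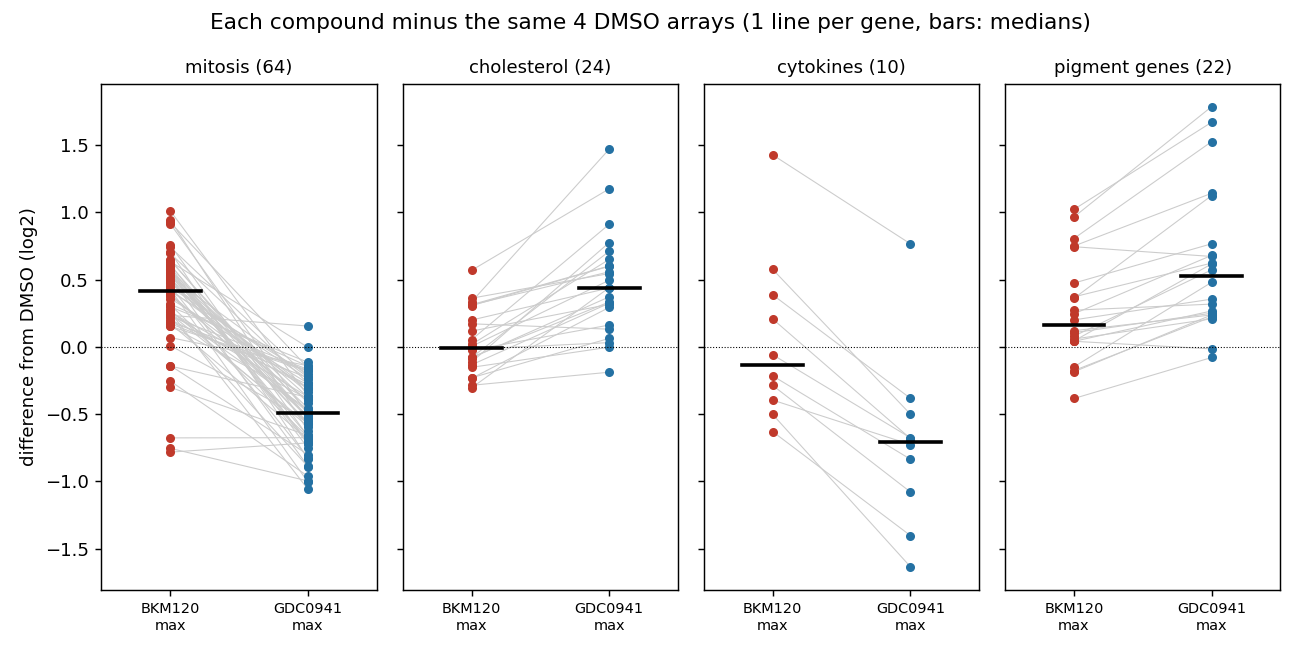
Difference from DMSO (y axis, log2) in BKM120 max (red, left) and GDC0941 max (blue, right) for the tested genes of 4 groups, 1 grey line per gene, with black bars for medians. Both sides subtract the same 4 DMSO arrays. Mitotic medians are 0.42 and -0.49, and cholesterol medians are -0.0059 and 0.44.

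Targets of FOXO, the transcription factors that PI3K signalling restrains, were mostly raised by both compounds and more so by GDC0941 max. Of 27 FOXO factors and targets, 16 rose and 6 fell in BKM120 max and 21 rose and 3 fell in GDC0941 max relative to DMSO. Between the compounds 2 were called higher and 15 lower in BKM120 max (median -0.23). YPEL3, a gene linked to growth arrest, was 7.54, 7.44, 7.46 and 7.58 in BKM120 max, 8.39, 8.29, 8.42 and 8.15 in GDC0941 max and 6.52 to 6.74 in DMSO, a staircase without overlap (-0.81 ± 0.099, adjusted p = 3.08e-08), although a dimmer probe set above the filter differed by 0.15. INSR, the insulin receptor, was 6.12, 6.15, 6.32 and 6.60 in BKM120 max, 7.09, 7.22, 7.35 and 7.08 in GDC0941 max and 5.97 to 6.26 in DMSO (-0.89 ± 0.15, adjusted p = 1.68e-05). TRIM63, a ubiquitin ligase of muscle wasting, differed by -0.63 ± 0.11 and KLHL24, an adaptor of a ubiquitin ligase, by -0.60 ± 0.091. The forkhead letters GTAAACA, on either strand, were present in 4 of 24 promoters of this list (16.7%), in 2.23% of those of tested genes and in 3.41% of all.

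Several pro-apoptotic members of the BCL2 family were lower in BKM120 max than in GDC0941 max. BMF, a BH3-only protein, was 5.27, 5.61, 5.89 and 5.74 in BKM120 max, 7.15, 6.92, 7.00 and 7.04 in GDC0941 max and 4.60, 4.92, 5.01 and 4.74 in DMSO. It rose with both compounds, by 0.81 with BKM120 max and by 2.21 with GDC0941 max, and the difference was -1.40 ± 0.12 (adjusted p = 9.32e-12). HRK, another BH3-only protein, was 5.58, 5.73, 5.46 and 5.45 in BKM120 max, 6.96, 6.86, 7.01 and 6.82 in GDC0941 max and 5.38 to 5.73 in DMSO, so it rose in GDC0941 max and overlapped the controls in BKM120 max (-1.36 ± 0.21, adjusted p = 2.61e-06). BCL2L11, the BH3-only protein BIM, differed by -0.84 ± 0.11 at the probe set used. Only 2 of its 5 probe sets above the filter had that direction, and the mean over all its probe sets differed by 0.0115. Of the 8 BH3-only genes 0 were called higher and 4 lower. Of the 5 survival genes 2 were called higher and 1 lower, and of the 3 effectors none was called.

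Receptors and adaptors had 2 of 13 called higher and 5 lower. PDGFRA, a platelet-derived growth factor receptor that also marks fibroblasts, differed by -0.83 ± 0.11, GAB1, a docking protein, by -0.76 ± 0.11 and KIT, a receptor of melanocytes, by -0.57 ± 0.14. IRS1, an insulin receptor substrate, was higher, by 0.43 ± 0.067, though not called when its probe sets were averaged (0.23). Few genes of the PI3K, AKT and mTOR core differed: 2 of 36 were called higher and 5 lower, below the background in both directions. Among class I catalytic subunits, PIK3CG was 8.61, 8.59, 8.69 and 8.68 in BKM120 max, 8.20, 8.18, 8.12 and 8.22 in GDC0941 max and 8.66 to 8.84 in DMSO (0.46 ± 0.064, adjusted p = 3.83e-07). PIK3CB and PIK3CD were not called, with 95% intervals of -0.20 to 0.03 and -0.11 to 0.19. The regulatory subunits PIK3R1 (-0.28 to 0.14) and PIK3R3 (-0.49 to 0.12) were not called either, whereas PIK3R4, a subunit of the class III complex, was lower by -0.38 ± 0.10. DEPTOR, an inhibitor of mTOR, differed by -0.72 ± 0.15, PRR5, a component of mTORC2, by -0.55 ± 0.088 and RHEB, the GTPase that activates mTORC1, by 0.31 ± 0.051.

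TXNIP, a regulator of glucose uptake controlled by the glucose sensor MondoA, rose with both compounds. It stood at 9.97, 9.93, 10.04 and 9.97 in BKM120 max, 10.06, 9.82, 10.06 and 9.88 in GDC0941 max and 8.31, 8.38, 8.31 and 8.31 in DMSO. The changes from DMSO were 1.65 and 1.63, and the 95% interval of the difference between compounds was -0.09 to 0.13 (adjusted p = 0.806). None of the 6 genes of its list was called. SLC2A1, the glucose transporter GLUT1, was 9.14, 9.00, 8.82 and 9.04 in BKM120 max, 8.04, 7.98, 7.74 and 7.88 in GDC0941 max and 9.03 to 9.10 in DMSO. It fell in GDC0941 max and stayed near the controls in BKM120 max (1.09 ± 0.14, adjusted p = 5.02e-08). The list of glycolysis and hypoxia genes as a whole had 2 of 35 called higher and 9 lower.

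Cytokine and chemokine genes were higher in BKM120 max than in GDC0941 max. All 10 tested were called higher, with a median of 0.77. The NF-kB list holds 14 further tested genes, of which 5 were called higher and 3 lower, so it reached 15 higher and 3 lower of 24. The 5 were TRAF1 (0.74), IL7R (0.66), RELB (0.42), PTGS2 (0.37) and ICAM1 (0.30). The 3 were NFKBIA (-0.34), TNFAIP3 (-0.33) and SOD2 (-0.15). The NF-kB subunit genes NFKB1, NFKB2 and RELA were not called. Many genes of the list are dim, and above the 60th percentile of signal 10 remained, 3 called higher and 2 lower. CXCL8, a neutrophil chemoattractant, was 7.86, 7.86, 7.79 and 7.69 in BKM120 max, 6.66, 6.66, 6.52 and 6.83 in GDC0941 max and 8.20 to 8.39 in DMSO (1.13 ± 0.19, adjusted p = 1.37e-05). Both compounds lowered it, GDC0941 max more. CXCL3, a related chemokine, was 6.99, 7.23, 7.11 and 7.12 in BKM120 max, 5.98, 5.76, 6.27 and 6.13 in GDC0941 max and 5.93 to 6.89 in DMSO (1.08 ± 0.15, adjusted p = 4.45e-07). All BKM120 arrays lay above the controls, whereas the GDC0941 arrays overlapped them. Relative to DMSO CXCL3 was called higher in BKM120 max (0.58) and lower in GDC0941 max (-0.50). CXCL1 differed by 0.79 ± 0.10, IL11, a cytokine of the interleukin-6 family, by 0.89 ± 0.19, IL1B by 0.77 ± 0.15 and CCL2, a monocyte attractant, by 0.77 ± 0.13. Changes from DMSO in BKM120 max and GDC0941 max were -0.29 and -1.08 for CXCL1 and -0.63 and -1.40 for CCL2. They were 0.39 and -0.38 for IL1B and 0.21, not called, and -0.68 for IL11. Against GDC0941 IC90 CCL2 was not called (-0.07, adjusted p = 0.767 in limma).

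A kappa-B site of NF-kB, without any mismatch and on either strand (its letters are the capitals in the promoters below), was present in 5 of 20 promoters of the NF-kB list (25%), in 0.184% of those of tested genes and in 0.161% of all. Both chemokine promoters below carry the match at position -79 and are shown because the genes moved in the same direction between the compounds (GRCh38.p14, match in capitals).
CXCL3, chr4:74038640-74038939, minus strand: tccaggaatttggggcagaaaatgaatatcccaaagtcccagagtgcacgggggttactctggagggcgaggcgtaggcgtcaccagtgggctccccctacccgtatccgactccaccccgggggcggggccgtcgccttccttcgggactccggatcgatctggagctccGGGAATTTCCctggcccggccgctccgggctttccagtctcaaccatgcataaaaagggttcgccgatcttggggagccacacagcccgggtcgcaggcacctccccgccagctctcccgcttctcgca
CXCL1, chr4:73869143-73869442, plus strand: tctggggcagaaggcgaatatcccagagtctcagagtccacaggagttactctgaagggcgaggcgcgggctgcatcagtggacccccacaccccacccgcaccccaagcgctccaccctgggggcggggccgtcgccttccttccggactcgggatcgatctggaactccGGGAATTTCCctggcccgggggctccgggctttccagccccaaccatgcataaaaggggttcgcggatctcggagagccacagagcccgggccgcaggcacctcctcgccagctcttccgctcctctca
These 2 genes are neighbours of common origin, so their promoters are not independent examples.

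Of 40 genes of SRF, actin, YAP and TEAD, which respond to cell tension, 16 were called higher and 3 lower in BKM120 max (median 0.16). The SRF and actin genes had 10 of 19 higher and 0 lower. The YAP and TEAD genes had 6 of 21 higher and 3 lower, the 3 being FOXF2 (-0.50), TEAD2 (-0.31) and TEAD3 (-0.35), and the known YAP targets CCN1 (0.20) and CCN2 (-0.16) were not called. ACTG2, a smooth muscle actin, was 10.40, 10.27, 10.24 and 10.35 in BKM120 max, 9.10, 9.15, 9.12 and 9.06 in GDC0941 max and 10.16 to 10.47 in DMSO, so only GDC0941 max left the control range (1.21 ± 0.079, adjusted p = 4.28e-15). TAGLN, an actin-binding protein, differed by 1.00 ± 0.10 and FHL2, a LIM-domain cofactor, by 0.81 ± 0.074. Output genes of MAPK, the other main growth pathway of melanoma, apart from its feedback genes, were called higher in 6 of 12 cases and lower in 1. Feedback genes of that pathway had 1 of 11 higher and 3 lower. EGR1, an immediate early factor, was 10.24, 10.24, 10.26 and 10.21 in BKM120 max, 9.40, 9.33, 9.58 and 9.56 in GDC0941 max and 8.28 to 8.59 in DMSO, having risen with both (0.77 ± 0.075, adjusted p = 1.52e-10). FOSL1, a subunit of AP-1, rose in BKM120 max by 0.91 and was near DMSO in GDC0941 max (0.88 ± 0.085 between them), and EPHA2, an ephrin receptor, differed by 1.09 ± 0.10. MYC, the growth-promoting transcription factor, went the other way, at 7.11, 7.19, 7.35 and 6.86 in BKM120 max, 8.26, 8.13, 8.37 and 8.38 in GDC0941 max and 6.93 to 7.10 in DMSO (-1.15 ± 0.13, adjusted p = 2.83e-09).

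Pigment cell genes were mostly higher in GDC0941 max. Relative to DMSO, 10 of 22 pigment genes rose and 1 fell in BKM120 max, and 19 rose and 0 fell in GDC0941 max. Of these 22 genes 0 were called higher and 17 lower in BKM120 max (median -0.35), and of 5 lineage factors 1 was lower. MLANA, a melanosome protein, was 9.06, 9.14, 9.21 and 9.23 in BKM120 max, 9.86, 9.71, 9.86 and 9.80 in GDC0941 max and 8.08 to 8.23 in DMSO (-0.65 ± 0.066, adjusted p = 5.24e-10). TRPM1, a cation channel first known from melanocytes, was 7.57, 7.61, 7.47 and 7.65 in BKM120 max, 8.48, 8.53, 8.18 and 8.39 in GDC0941 max and 6.28 to 6.92 in DMSO (-0.82 ± 0.11, adjusted p = 3.83e-07). OCA2, a melanosome transporter, differed by -0.76 ± 0.15, MLPH, which tethers melanosomes, by -0.72 ± 0.18, RAB27A, the GTPase it binds, by -0.63 ± 0.061 and TYR, tyrosinase, by -0.39 ± 0.070. MITF, the master factor of the lineage, differed by only -0.19 ± 0.041 (adjusted p = 0.00045).

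MITF is known to bind the M-box core CATGTG. On either strand it was present in 9 of 21 promoters of the melanocyte list (42.9%), in 6.7% of those of tested genes and in 11.2% of all. The promoter of TRPM1 carries it at position -8 and is shown as the listed gene with the widest difference (GRCh38.p14, match in capitals).
TRPM1, chr15:31161111-31161410, minus strand: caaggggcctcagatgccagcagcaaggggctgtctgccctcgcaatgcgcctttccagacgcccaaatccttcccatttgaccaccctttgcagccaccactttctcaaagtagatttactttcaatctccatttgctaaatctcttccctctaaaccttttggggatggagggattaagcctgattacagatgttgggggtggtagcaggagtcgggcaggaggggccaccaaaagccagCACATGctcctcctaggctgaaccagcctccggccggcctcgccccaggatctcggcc
Markers of a dedifferentiated melanoma state had 8 of 24 called higher and 1 lower. NGFR, the nerve growth factor receptor of that state, was 7.14, 7.28, 7.26 and 7.43 in BKM120 max, 6.46, 6.54, 6.03 and 6.19 in GDC0941 max and 7.41 to 7.53 in DMSO (0.98 ± 0.14, adjusted p = 4.41e-07). It fell in GDC0941 max and was not called against DMSO in BKM120 max. LOXL2, a matrix cross-linking enzyme, differed by 0.96 ± 0.098 and SOX9, a neural crest factor, by -0.61 ± 0.11.

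Beyond those lists, the genes with the widest differences on the lower side included some that rose in GDC0941 max and some that fell in BKM120 max relative to DMSO. STK32A, a poorly studied kinase, was 6.08, 5.78, 5.90 and 5.59 in BKM120 max, 7.45, 7.38, 7.42 and 7.36 in GDC0941 max and 5.25, 5.75, 5.50 and 5.74 in DMSO (-1.56 ± 0.10, adjusted p = 4.71e-15). It rose by 1.84 in GDC0941 max and by 0.28 in BKM120 max, whose arrays overlapped the controls. RAB6B, a Golgi GTPase of neurons, differed by -1.43 ± 0.12, ICA1, an autoantigen of secretory cells, by -1.36 ± 0.11, OLIG1, a glial transcription factor, by -1.30 ± 0.077, NSG1, an endosomal protein of neurons, by -1.15 ± 0.14 and IL17RE, an interleukin-17 receptor subunit, by -1.18 ± 0.12. All 5 rose in GDC0941 max relative to DMSO, by 1.29, 1.72, 1.21, 1.54 and 0.98. In contrast FAM222A (-1.32), FGFBP3, a binding protein of fibroblast growth factors (-1.28), and RAB3A, a GTPase of synaptic vesicles (-1.25), fell in BKM120 max and differed from DMSO by 0.11, 0.11 and 0.22 in GDC0941 max. The non-coding transcripts ELFN1-AS1 (-1.27) and PAXIP1-DT (-1.16) fell in BKM120 max and rose in GDC0941 max. One further probe set among the 15 with the widest differences on the lower side is annotated to the microRNA gene MIR146A, and no value is given because it was not matched to the mature microRNA.

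The counts of the remaining lists stand against 12.5% called higher and 21% called lower over all genes. Among ATF4 targets, lysosomal genes and interferon-stimulated genes most calls were lower. ATF4 targets, which serve amino acid supply, had 2 of 45 called higher and 12 lower, and most fell with both compounds relative to DMSO (32 in BKM120 max, 31 in GDC0941 max). NUPR1, a stress-induced cofactor, differed by -1.07 ± 0.14, CHAC1, which degrades glutathione, by -0.55 ± 0.12 and TRIB3, a pseudokinase, by -0.49 ± 0.12. The amino acid response letters TGATGCAA, on either strand, were present in 7 of 38 promoters of that list (18.4%), in 0.47% of those of tested genes and in 0.923% of all. Lysosomal genes had 2 of 49 called higher and 16 lower, among them the glycosidase MANBA (-0.59 ± 0.10) and the protease CTSK (-0.54 ± 0.069), and autophagy genes had 3 of 28 higher, with ULK1, the initiating kinase, at 0.54 ± 0.15 though its groups overlapped, and 3 lower. Interferon-stimulated genes had 3 of 37 higher and 12 lower, and the guanylate-binding proteins divided, GBP2 at -0.81 ± 0.093 and GBP1 at 0.64 ± 0.13, with the mitochondrial kinase CMPK2 at -0.71 ± 0.084. Antigen presentation had 2 of 18 higher and 4 lower, with CD74, the class II chaperone, at 0.46 ± 0.094. Ribosome biogenesis, a list that also holds factors of the MYC network, had 7 of 40 higher and 6 lower. Of that network MYC, MAX (-0.45), MNT (-0.43) and MXI1 (-0.23) were lower, and MXD3 (0.44) was higher. The other higher calls were nucleolar genes. The only nucleolar genes called lower were POLR1B (-0.25) and TAF1D, a subunit of the RNA polymerase I selectivity factor (-1.11 ± 0.14). Targets of p53 had 3 of 23 higher and 6 lower, with the death receptor FAS at 0.81 ± 0.089 and the RNA-binding protein ZMAT3 at -0.90 ± 0.070. Chaperones of the endoplasmic reticulum had 5 of 21 higher and 2 lower, with DNAJB9 at -0.73 ± 0.072, immediate early and AP-1 genes 4 of 19 higher and 3 lower, and TGF-beta, SMAD and ID genes 3 of 18 higher and 5 lower, with SMAD3, a signal transducer, at 0.72 ± 0.070 and ID2, an inhibitor of differentiation factors, at -0.70 ± 0.097. Among markers of other cell types 0 of 7 were higher and 2 lower, the fibroblast markers DCN (mean intensity 15.3 in BKM120 max and 26.5 in GDC0941 max) and PDGFRA (29.6 and 64.8), and their part in the other differences was not tested.

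Since BKM120 max carries an IC90 label, it was also set against the IC90 level of GDC0941, with the same BKM120 arrays. Of 11865 genes 3564 (30%) were called, 1388 higher (11.7%) and 2176 lower (18.3%). Mitotic genes had 57 of 64 called higher and 3 lower (median 0.66), cholesterol genes 0 higher and 15 lower (median -0.28) and pigment cell genes 2 of 27 higher and 16 lower. Of the FOXO targets described above, INSR was called lower (-0.47, adjusted p = 0.0166 in limma). YPEL3 (-0.25, adjusted p = 0.0502), KLHL24 (-0.18, adjusted p = 0.133) and TRIM63 (-0.09, adjusted p = 0.597) were not called at this level. DHRS3 averaged 9.70 ± 0.05 in BKM120 max and 7.14 ± 0.38 in GDC0941 IC90 (SD, n = 4 each), and the difference of 2.55 had an adjusted p of 8.65e-18 in limma. NT5DC4 (2.39), RAB11FIP3 (2.25), EBLN2 (2.17) and EIF3C (2.02) followed. At the other end stood FGFBP3 (-1.76), FAM222A (-1.56), STK32A (-1.36), MAP2K6, a kinase that activates p38 (-1.36), and MYB, a transcription factor of progenitor cells (-1.35). TXNIP, not called at the highest levels, was 0.74 higher in BKM120 max than in GDC0941 IC90 (adjusted p = 2.82e-13).

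At their IC50 levels the compounds were far closer. Of 11865 genes 71 (0.598%) were called, 54 higher (0.455%) and 17 lower (0.143%) in BKM120 IC50, 0 of them by 2-fold, and 1796 had an unadjusted p under 0.05. With quantile normalization 90 were called higher and 47 lower, so that 65.7% of calls were on the higher side, against 76.1% as deposited. The count depends on the arrays in the fit: without replicate 3 of BEZ235 IC50, the array that stood apart in RNA integrity, 490 genes were called, with only the arrays of this comparison 350, and without single replicates 18 to 118. DHRS3 again led, at 9.96 ± 0.04 in BKM120 IC50 and 9.03 ± 0.07 in GDC0941 IC50 (SD, n = 4 each), a difference of 0.93 (adjusted p = 0.000189 in limma). TXK, a kinase of lymphocytes (0.59), FAM78B (0.58), the zinc finger gene ZNF623 (0.58) and the divergent transcript EFCAB13-DT (0.51) followed. Lower in BKM120 IC50 were CGA, the shared subunit of glycoprotein hormones (-0.61), CXCL1 (-0.46), ACTG2 (-0.45), NEFL, a neurofilament protein (-0.43), and ALDOC, an aldolase (-0.41). CXCL1 and ACTG2 had the opposite sign at the highest levels. In mitosis 1 of 64 genes was called higher and 0 lower (median -0.0178), and in cholesterol synthesis and uptake 0 of 24 in either direction.

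**Figure D4:**
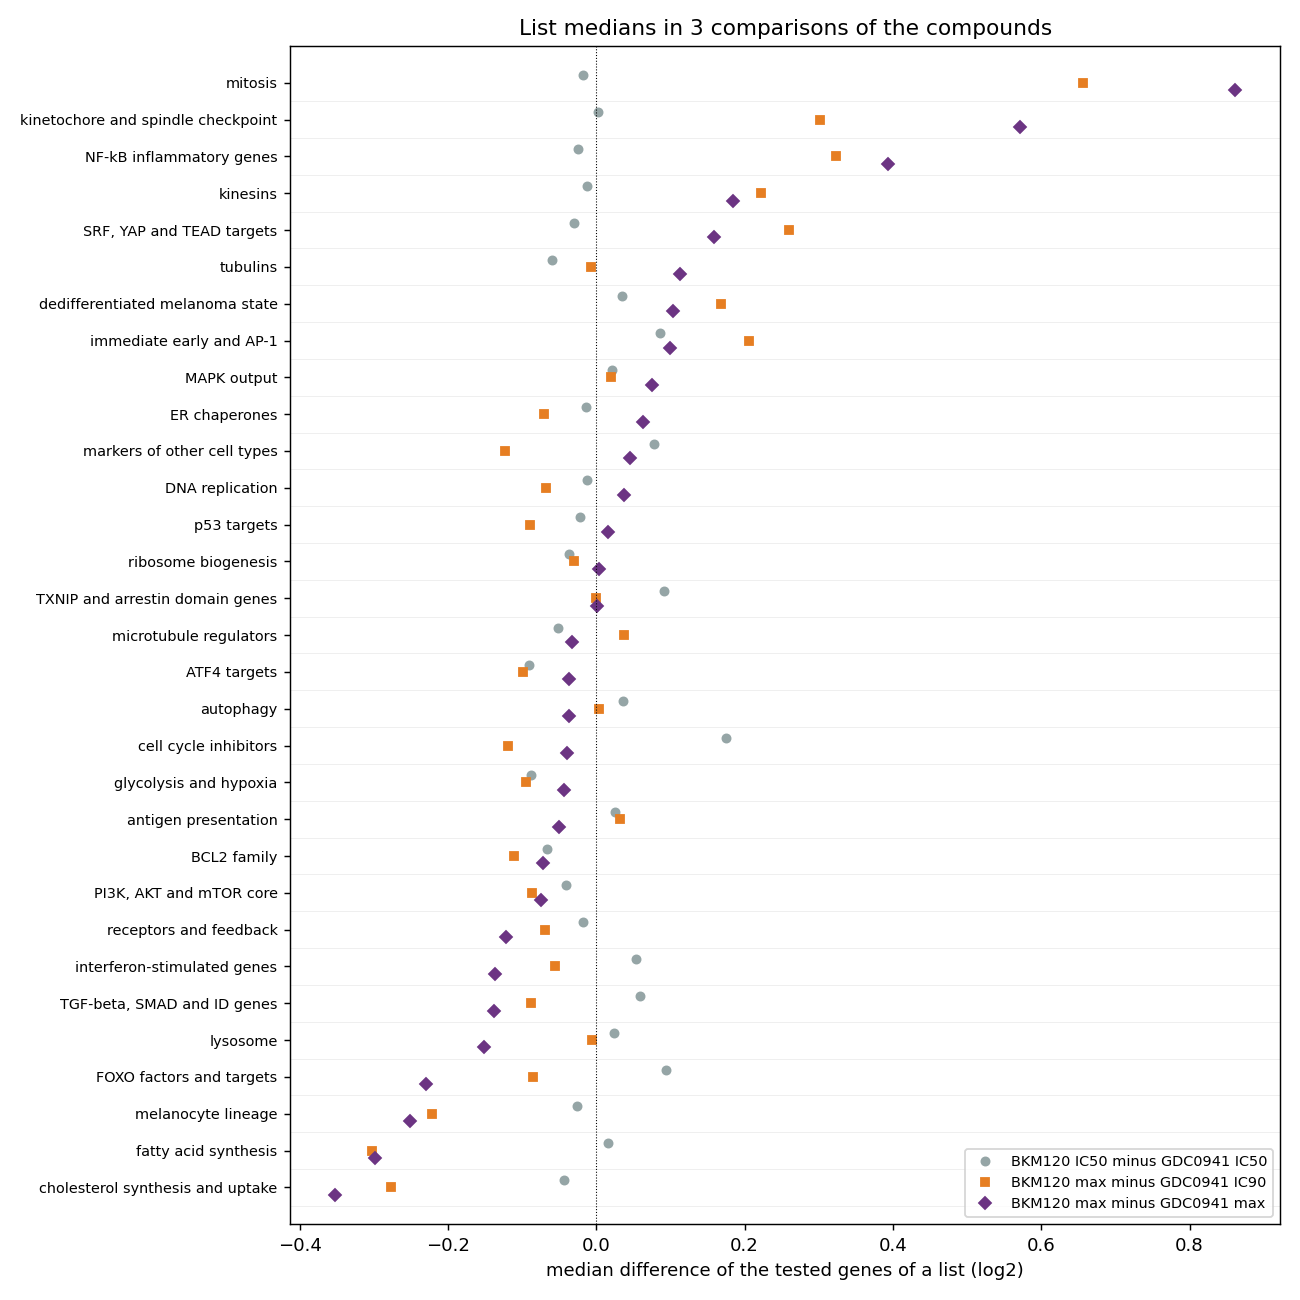
Median difference of the tested genes of each of 31 lists (x axis, log2, BKM120 minus GDC0941) at the IC50 of both (grey circles), with BKM120 max against GDC0941 IC90 (orange squares) and at the highest level of both (purple diamonds). For mitosis the medians are -0.0178, 0.66 and 0.86.

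The change of the compound difference between the IC50 and the highest levels was itself tested. It was called in 2821 genes (23.8%), 1029 toward higher in BKM120 (8.67%) and 1792 toward lower (15.1%), among them 55 of 64 mitotic genes toward higher and 0 toward lower. Over the labelled series HJURP averaged 8.47, 8.44 and 9.53 at BKM120 IC30, IC50 and max, and 8.46, 8.27 and 7.93 at GDC0941 IC50, IC90 and max, with 8.82 in DMSO. Both lower levels of BKM120 thus lay below DMSO, as did every level of GDC0941, and the highest level of BKM120 lay above it. HMGCS1 averaged 10.18, 10.21 and 9.73 over the BKM120 levels and 10.25, 10.38 and 10.59 over the GDC0941 levels, with 9.67 in DMSO, so the level at BKM120 max was the one near the control. STK32A had the same shape, at 6.84, 6.75 and 5.84 over the BKM120 levels and 6.85, 7.19 and 7.40 over the GDC0941 levels, with 5.56 in DMSO. DHRS3 differed at the IC50 and at the highest levels, at 9.97, 9.96 and 9.70 over the BKM120 levels and 9.03, 7.14 and 6.36 over the GDC0941 levels, with 9.67 in DMSO. BMF averaged 5.73, 5.55 and 5.63 over the BKM120 levels and 5.50, 6.08 and 7.03 over the GDC0941 levels, with 4.82 in DMSO.

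**Figure D5:**
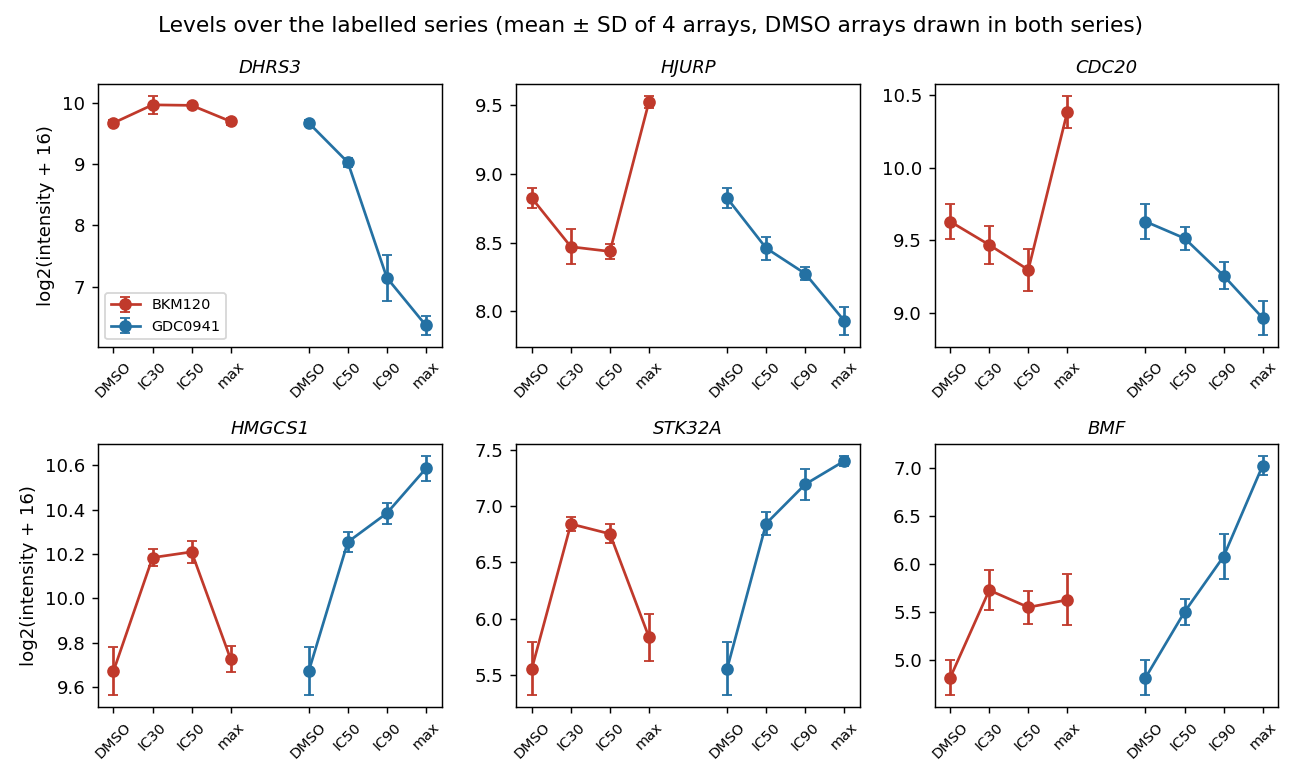
Levels of 6 genes (y axes, log2 of intensity + 16, mean ± SD of 4 arrays) over DMSO and 3 labelled levels of BKM120 (red, left) and of GDC0941 (blue, right). Spacing along the x axis is by label, not by molar concentration. HJURP and CDC20 turn upward, and HMGCS1 and STK32A downward, between BKM120 IC50 and BKM120 max.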

How the data were processed

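The study profiled RNA of A2058 cells on 1-colour arrays of 54675 probe sets, 40 arrays in 10 groups of 4, with RNA amplified from 50 ng per the labels' protocols. The deposited values are linear intensities from MAS5, per the submitters' processing notes, and the 2% trimmed mean of the deposited intensities is 150 on every array. Each intensity was turned into log2(value + 16). A gene was represented by its probe set of highest mean signal, but a cross-hybridising design was used only where the gene had no other. The 11865 of 19775 genes above the 40th percentile of signal were tested, and both steps used all 40 arrays. Gene symbols came from the platform annotation and were updated to RefSeq symbols through its Entrez gene identifiers. One limma model (version 3.58.1, R 4.3.3) with 10 group means and 30 residual degrees of freedom, eBayes with a trend and Benjamini-Hochberg adjustment within each comparison gave all differences, and the number of arrays limits their precision. Array quality measures were tested by exact permutation. Genes were named by rank (up to 15 per direction with groups that did not overlap, 5 in the other comparisons) and up to 6 per list, with further tubulins and PI3K subunits. The tested tubulins TUBB1 and TUBG2, neither of them called, were left out. The members, the 31 lists and the 7 promoter motifs were chosen with earlier results of these data known. Of 962 listed symbols, 905 were on the array and 832 tested. The procedure was tested on simulated data. Alternatives covered the pseudocount, filter, probe set rule, normalization, variance model, array of low RNA integrity and replicates.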

Additional observations from a re-analysis of the deposited data

Results flagged for a closer look

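The change of the compound difference between the IC50 and the highest levels was tested as an interaction and called in 2821 genes. Toward higher in BKM120 the widest changes were those of NT5DC4 (2.47), DHRS3 (2.40), EBLN2 (2.29), SNORA21 (2.27) and GTF2H2B (2.13). Toward lower they were those of GABPB1-IT1, an intronic transcript of the gene GABPB1 (-1.51), STK32A (-1.47), ICA1 (-1.45), BMF (-1.45) and OLIG1 (-1.44).

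Probe sets without a gene symbol entered no comparison of named genes. Of 2874 tested, 603 were called higher and 509 lower in BKM120 max (38.7% called), and 241 were higher by at least 2-fold against 19 lower by at least 2-fold.

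Each group of 4 arrays was searched for 1 array far from the other 3 in the 136 genes described, and 29 of 408 groups (7.11%) held one, where chance gives about 1 in 20. In BKM120 max replicate 1 stood apart in DHRS3 (9.62), MCM6 (9.39), TXK (6.68) and ZNF623 (7.83), and replicate 3 in the tubulins TUBB (10.98), TUBB3 (11.22) and TUBB4B (11.08), all 3 below the others, and above them in TRIB3 (6.62) and SMAD3 (10.14). In GDC0941 max replicate 1 stood apart in TUBD1 (8.36), replicate 2 in ICA1 (7.80), replicate 3 in SNORA21 (6.65), HMMR-AS1 (6.78), PIK3R1 (8.78) and CGA (4.69), and replicate 4 in PIF1 (5.93), PIK3R4 (7.69) and CCL2 (5.01). In DMSO replicate 2 stood apart in 5 genes, SNORA21 (7.37), TUBB4B (10.99), DEPTOR (5.61), TXNIP (8.38) and ACTG2 (10.16), replicate 1 in RAB3A (7.77), replicate 3 in ELFN1-AS1 (7.29), CENPE (8.36) and CCL2 (6.89), and replicate 4 in TUBB2B (8.93) and MAP2K6 (8.03).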

How the results depend on the processing

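The call count of BKM120 max against GDC0941 max was 2592 among genes above the 60th percentile of signal, which tests fewer genes, 141 when a 2-fold change was also required, 3469 to 3663 without single replicates and up to 4949 in the remaining settings. Against GDC0941 IC90 it was 2343 above the 60th percentile and 3113 to 3261 without single replicates. The IC50 count of 71 was the least stable: 37 with probe sets averaged, 137 with quantile normalization, 490 without replicate 3 of BEZ235 IC50 or with the ratio of 3-prime to 5-prime signal as a covariate, and 350 with only its own arrays. Without replicates 1, 2 and 4 of BKM120 IC50 it was 36, 27 and 47, and without replicates 1 to 4 of GDC0941 IC50 it was 32, 35, 118 and 18. The change of the difference gave 2420 to 2977 calls without single replicates. Of the 124 described genes called at the highest levels, 121 were called in every setting that held them, TUBA1A and IRS1 (0.23, probe sets averaged) lost the call in at least 1 setting, and BCL2L11 turned to 0.0115 with probe sets averaged. Among genes not called, TUBA1C gained the call in 4 settings and EFCAB13-DT in 7, and averaging probe sets turned PIK3CD to -0.0317 and PIK3R1 to 0.0421, and TXNIP ran between -0.0238 and 0.0574 without single replicates, with -9e-04 and -0.0024 among its values. The GAPDH ratio difference ran between -0.0318 and 0.0252, with 0.000301 without replicate 2 of BKM120 max, and that of ACTB between -0.147 and -0.0602. Apart from averaging, fewer genes and fewer arrays, the cause was not tested. Replicate numbers were not treated as pairs. Deviations of same-numbered arrays of the compounds correlated at -0.0256, 0.124, 0.142 and -0.0109, and those of different-numbered arrays at -0.138 to 0.142. So few pairs cannot exclude a shared effect of the replicate. A fit with the replicate number as a block called 3924 genes at the highest levels, 3530 against IC90 and 59 at the IC50. It called 2773 for the change, and 4053 and 5112 for BKM120 max and GDC0941 max against DMSO. Dim genes have understated folds on this scale.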
